A study of Mus musculus with 8 samples.

Results

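Untreated neurosphere cells were measured on 2 arrays, titled untreated in the series, out of 8 arrays in all. They were chosen by that title, not by any measured value. Neurosphere cells are neural stem and progenitor cells that grow as floating clusters. Cultures were set up from forebrains that were taken individually from mouse embryos on embryonic day 14.5. All embryos carried a bcl2 transgene (bcl2 blocks cell death), so the transgene is shared by every sample of the series, and the labels do not say what drives it or from which species it comes. The 2 arrays, called Exp1 and Exp2 here, came from independent experiments in which cells were left untreated. The other 6 arrays, of cells treated with AzaC (5-aza-2′-deoxycytidine, which blocks DNA methyltransferases), TSA (trichostatin A, which blocks histone deacetylases) or both, were not used. No groups were compared and no test was run, and the number of arrays limits the precision.

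Neural stem cells of the embryonic forebrain divide, keep themselves undifferentiated through Notch signalling and through factors such as Sox2 and the Id proteins, and later give rise to neurons, astrocytes and oligodendrocytes. In culture they are kept dividing by growth factors that act on the Egf and Fgf receptors. A baseline array asks which of these programmes the RNA of the culture holds, and which genes of other lineages give a signal.

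Each probe set (the group of short oligonucleotides that reads a transcript) had 1 deposited signal per array, on a linear scale that the authors had set to the same trimmed mean, 200.1, on both arrays. The annotation named 8251 genes by a single symbol, and each gene was represented by its probe set of highest mean log2 signal. Probe sets bind with different strength, so the order of signals is not an order of transcript amounts. In bulk RNA, fewer cells of a type and less RNA per cell cannot be told apart. On the whole array, 4784 genes (58.0%) lay above a signal of 50 on both arrays and 1215 (14.7%) under 20 on both. The other 2252 were between these classes or split, and 194 of them lay above 50 on 1 array and under 20 on the other. Just inside and just outside the threshold of 50, judged by the lower array, were Akap9 with 105 in Exp1 and 50.2 in Exp2 and Grid1 with 140.1 in Exp1 and 49.9 in Exp2. At the threshold of 20, judged by the higher array, Dmtn lay just inside with 17.7 in Exp1 and 19.9 in Exp2, and Abcb1a just outside with 20.1 in Exp1 and 6.3 in Exp2.

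Control probe sets showed what a signal without a matching transcript looks like. The 19 probe sets for bacterial poly-A controls and yeast genes had signals from 1 to 37 with a median of 5.4, and 0 of their 38 values exceeded 50. The 15 reverse-strand controls, which read the opposite strand of control transcripts, ranged from 1.5 to 114.2, and 12 of their 30 values exceeded 50. A signal between 50 and 114.2 was therefore also seen on probe sets with no transcript of their own strand. By the stricter level of 114.2 on both arrays, 3528 genes (42.8%) remained. Signals under 20 do not show that a transcript is absent: Rps15 (4.1 in Exp1 and 3.9 in Exp2) and Rps20 (16.7 in Exp1 and 17.8 in Exp2), ribosomal protein genes whose products every cell uses, lay under 20. Of 36 genes with ribosomal protein names, the other one under 20 was Rpl39l (9 in Exp1 and 4.1 in Exp2), a copy of Rpl39 known mainly from testis.

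The brightest genes served protein synthesis, the cytoskeleton and energy supply. Of the 30 genes of highest mean log2 signal, 11 encoded ribosomal proteins, led by Rpl41 with 21635 in Exp1 and 24315 in Exp2. Rps28, Rplp0, Rps24, Rps3a1, Rps18, Rpl8, Rps4x, Rpl19, Rpl7 and Rps7 were the others. Eef1a1, the factor that brings aminoacyl-tRNA to the ribosome, followed Rpl41 with 19832 in Exp1 and 23685 in Exp2. Tuba1a, an alpha-tubulin abundant in young neural cells, had 21824 in Exp1 and 16604 in Exp2, and a second probe set of it had 8670 in Exp1 and 9216 in Exp2. Other cytoskeletal genes in this group were the actin Actg1 (13271 in Exp1 and 12886 in Exp2), the tubulins Tuba1c (12560 in Exp1 and 12822 in Exp2) and Tubb5 (6714 in Exp1 and 7715 in Exp2), and the actin-binding peptide gene Tmsb4x (9899.8 in Exp1 and 16025 in Exp2). The probe sets used for the 30 genes all lay far above both thresholds on both arrays. Other probe sets of Rps28, Tubb5, Pkm, Cyc1 and Cst3 also stayed above 50 on both. Those of Rpl7 (2.5 in Exp1 and 4.6 in Exp2), Rpl19 (18.4 and 17.8) and Rps24 (22.5 and 43.4) did not. Neither did those of Gnas (45.2 or less) and Rps4x (36.4 or less). The probe sets used for Rpl41, Rps28, Tuba1c and Cox6a1 are of the family kind, which can read related genes.

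Energy metabolism entered the same group through Ckb, the brain form of creatine kinase, with 18781 in Exp1 and 18296 in Exp2. The respiratory chain subunits Cox6a1 (9009.7 in Exp1 and 6825 in Exp2) and Cyc1 (7921 in Exp1 and 6896 in Exp2) and the glycolytic enzyme Pkm (8237 in Exp1 and 6158 in Exp2) were also in it. Txn1, the redox protein thioredoxin, had 18086 in Exp1 and 14074 in Exp2. Tpt1, a calcium-binding protein abundant in growing cells, had 12579 in Exp1 and 12511 in Exp2, among the closest pairs of values in the group. The remaining members were Gnas, the stimulatory G protein alpha subunit (13044 in Exp1 and 11111 in Exp2), the nuclear transport GTPase Ran (8961 in Exp1 and 11301 in Exp2), the galectin Lgals1 (8052 in Exp1 and 11946 in Exp2), the nucleic acid binding protein Ybx1 (8872 in Exp1 and 10375 in Exp2) and the nucleosome binding protein Hmgn1 (7682 in Exp1 and 8056 in Exp2). Cst3, a secreted inhibitor of cysteine proteases, was the least even of the 30, with 13062 in Exp1 and 4804 in Exp2.

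Fabp7, the fatty acid binding protein of radial glia, was the only gene of the neural stem and progenitor list among these 30. Its signal was 9310 in Exp1 and 10920.1 in Exp2, the 14th highest mean. Ranks within the group were loose. For 28 of the 29 neighbouring pairs, the mean log2 signals differed by less than the gap between arrays of at least 1 of the genes. Of the 30 genes, 27 were among the highest 30 of Exp1 alone and 26 among those of Exp2 alone. The highest 30 genes held 12.2% of the summed signal of named genes in Exp1 and 12.8% in Exp2.

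**Figure D1:**
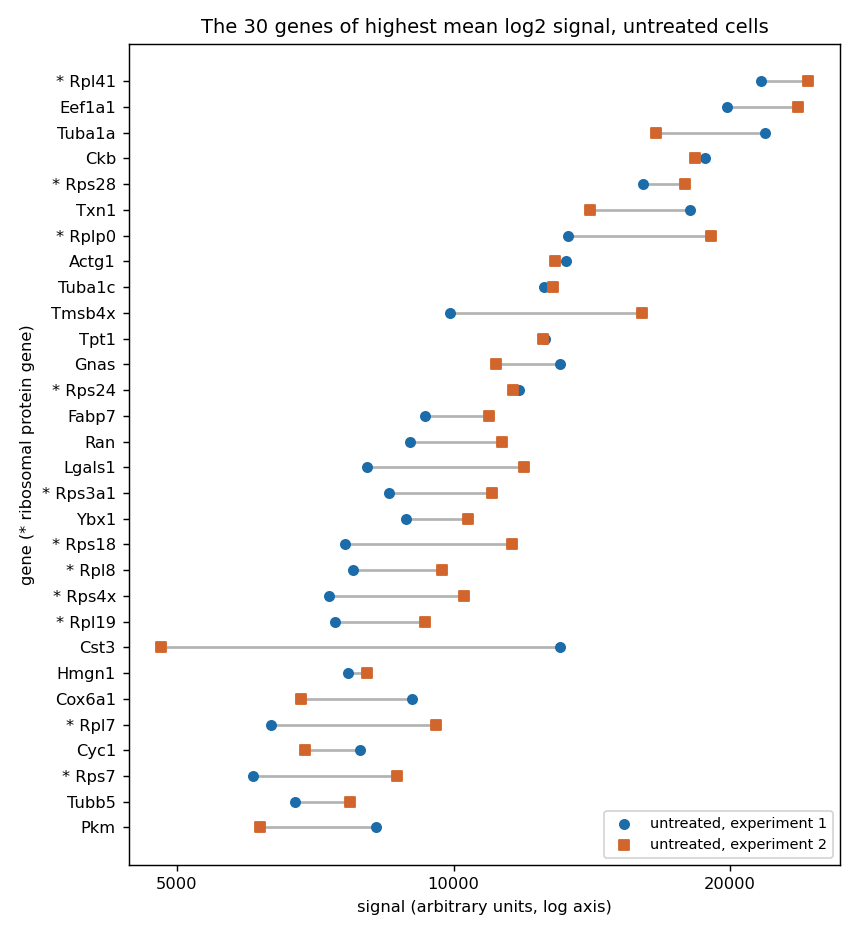
Signal of the 30 genes of highest mean log2 signal on both untreated arrays (log axis, arbitrary units), with circles for Exp1, squares for Exp2, a line joining them and asterisks for the 11 ribosomal protein genes. All values lie between 4804 and 24314.5, and Cst3 has the widest gap.

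The neural stem and progenitor list held some very bright genes, among them Fabp7, Sox2 and Nes, and others at the height of the controls. Of 20 members measured, 12 (60%) were above 50 on both arrays, close to the 58.0% of all named genes, and 1 was under 20. The list median was a signal of 189, against 96.2 over all named genes, and 11 members exceeded 114.2 on both arrays. Sox2, the transcription factor that keeps neural progenitors undifferentiated, had 3407 in Exp1 and 3751 in Exp2, read by a probe set whose name marks relaxed design rules. Nes, the intermediate filament protein nestin, had 2376 in Exp1 and 2053 in Exp2, although a second Nes probe set gave 10.8 and 5.9. For both genes the values of the 2 arrays lay closer than the median gap over probe sets above 50, which was 1.26-fold.

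Other members act at the cell surface or in the matrix. Gas1, a membrane-anchored hedgehog co-receptor, had 1815 in Exp1 and 2836 in Exp2. Ptprz1, a receptor tyrosine phosphatase of radial glia, had 1899 in Exp1 and 1829 in Exp2, and the matrix glycoprotein Tnc had 1198 in Exp1 and 1031 in Exp2. The receptor Notch1 had 579 in Exp1 and 556 in Exp2, and its target Hes1, a transcriptional repressor, had 325 in Exp1 and 263 in Exp2. Hes5, another Notch target, lay low with 14.5 in Exp1 and 37.1 in Exp2. Id3, which blocks proneural helix-loop-helix factors, had 1743 in Exp1 and 904 in Exp2. Its relative Id1 had 315 in Exp1 and 173 in Exp2. The transcription factors Sox3 (115 in Exp1 and 180.3 in Exp2) and Pax6 (91.7 in Exp1 and 154 in Exp2) completed the 12. Other Sox3 probe sets gave 89.2 in Exp1 and 197.7 in Exp2, 38.6 and 15.9, and 5.8 and 5.7.

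The members in neither class included Vim, the filament protein vimentin, at 44.5 in Exp1 and 35 in Exp2, and the RNA-binding protein Msi1 at 45.7 in Exp1 and 10.3 in Exp2. Sox1, a relative of Sox2, had 79.1 in Exp1 and 14.1 in Exp2, on opposite sides of both thresholds. Dll1, a Notch ligand, had 45.1 in Exp1 and 131 in Exp2. Id4 (54.5 in Exp1 and 22 in Exp2) and Gli3 (64.2 in Exp1 and 24.3 in Exp2) each passed 50 on Exp1 alone. Prom1, a membrane glycoprotein used to sort stem cells, was under 20 with 13.8 in Exp1 and 4.2 in Exp2. Of the 7 defining markers fixed for the list, Nes, Sox2, Pax6 and Fabp7 were above 50 and Hes5, Msi1 and Vim were in neither class. The other 6 genes of the list were not analysed here.

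Genes of cell division gave signals above the controls almost throughout. Of 25 measured, 24 (96%) were above 50 on both arrays, against 58.0% of all named genes, and the same 24 exceeded 114.2. The list median was 622. Ccnd1, the cyclin that starts the cell cycle, had 3917 in Exp1 and 2821 in Exp2, and the replication clamp Pcna had 1849 in Exp1 and 3208 in Exp2. Cdc20, which activates the ubiquitin ligase that ends mitosis, had 1728 in Exp1 and 2726 in Exp2, and the mitotic kinase Cdk1 had 1128 in Exp1 and 1569.8 in Exp2. Mki67, a marker of cycling cells, had 883 in Exp1 and 1226 in Exp2, and the topoisomerase Top2a had 471 in Exp1 and 866 in Exp2. Mcm6, a subunit of the replicative helicase, was the exception with 26.2 in Exp1 and 25.3 in Exp2. Its partners Mcm2 to Mcm5 and Mcm7 all passed 50, from 343 (Mcm4, Exp1) to 926 (Mcm5, Exp2).

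Inhibitors of the cell cycle gave signals beside them. Of 10, 7 (70%) were above 50 on both arrays, against 58.0% of all named genes, with a median of 309. Cdkn1a, the p53-inducible inhibitor p21, had 1225 in Exp1 and 806 in Exp2, and Gadd45a, a growth arrest gene, had 849.5 in Exp1 and 873 in Exp2. Btg2 had 332 in Exp1 and 663 in Exp2, and Cdkn2c, an inhibitor of the kinases that pair with D cyclins, had 399 in Exp1 and 482 in Exp2. Its relative Cdkn2d had 429 in Exp1 and 444 in Exp2. Cdkn2a, the senescence-linked Ink4a/Arf gene, had 69.6 in Exp1 and 91.9 in Exp2. Cdkn1b, the inhibitor p27, fell between the classes with 63.7 in Exp1 and 47.2 in Exp2.

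Enzymes that the study's inhibitors act on were measured at baseline. Of 13 genes for DNA methylation and histone deacetylation, 11 (84.6%) were above 50 on both arrays, against 58.0% of all named genes. The list median was 285, against 96.2 over all named genes, and 9 members exceeded the highest control on both arrays. The maintenance methyltransferase Dnmt1 had 536 in Exp1 and 749.9 in Exp2, and Uhrf1, which brings it to DNA, had 344 in Exp1 and 432 in Exp2. The de novo methyltransferase Dnmt3a gave 95.8 in Exp1 and 4.8 in Exp2, a split between the arrays that leaves its level unsettled. Dnmt3b was not analysed here. The histone deacetylases had 592 in Exp1 and 564 in Exp2 for Hdac1 and 666 in Exp1 and 854 in Exp2 for Hdac2. Hdac5 differed more between the arrays, with 721 in Exp1 and 266 in Exp2. Mbd3, a subunit of a deacetylase complex, had 631 in Exp1 and 584 in Exp2.

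Bcl2 itself had 217 in Exp1 and 108 in Exp2, although the cells carried the transgene. Its second probe set gave 175 in Exp1 and 69.7 in Exp2 and another 18.6 and 34.7. Whether these probe sets read the transgene was not tested. Other anti-death members were Bcl2l1, known as Bcl-xL (264 in Exp1 and 263 in Exp2), and Mcl1 (388 in Exp1 and 437 in Exp2). A second Bcl2l1 probe set gave 5.1 and 2.8. The death effector Bak1 had 333 in Exp1 and 319 in Exp2 and the sensor Bcl2l11 (Bim) 172 in Exp1 and 135 in Exp2. Other Bcl2l11 probe sets gave 63.3 in Exp1 and 73.7 in Exp2, and 7.4 and 6.2. In all, 7 of 12 genes of the family (58.3%) were above 50 on both arrays, near the 58.0% of all named genes.

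Of the astrocyte list, 10 of 13 genes (76.9%) were above 50 on both arrays, against 58.0% of all named genes, and 7 exceeded 114.2 on both. The list median was 184, and several of the 10 are also made by radial glia. Cd44 (51 in Exp1 and 52.9 in Exp2), Clu (79.6 in Exp1 and 74.8 in Exp2) and Fgfr3 (77.3 in Exp1 and 63.4 in Exp2) passed 50 at the height of the controls. Cd44, Clu and Apoe also had other probe sets under 20 on both arrays. Sparcl1, a secreted glycoprotein, led with 3829 in Exp1 and 3838 in Exp2. Gja1, the gap junction protein connexin 43, had 698 in Exp1 and 1178 in Exp2, and the aldolase Aldoc had 373 in Exp1 and 1248 in Exp2. S100b, a calcium-binding protein, had 178 in Exp1 and 200.4 in Exp2, and glutamine synthetase Glul had 269.5 in Exp1 and 126 in Exp2. Apoe, a lipid carrier, was uneven with 2633 in Exp1 and 237 in Exp2, as was the matrix protein Sparc with 723 in Exp1 and 292 in Exp2. Of the 4 defining markers, S100b and Glul were above 50 on both arrays and the other 2 were not. Gfap, the astrocyte filament protein, gave 43 in Exp1 and 16.9 in Exp2, and the water channel Aqp4 gave 27.9 in Exp1 and 18 in Exp2. Slc1a2, the main glutamate transporter of mature astrocytes, was under 20 with 13.5 in Exp1 and 6.6 in Exp2.

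Genes of the oligodendrocyte lineage reached 50 on both arrays in 0 of 12 cases, against 58.0% of all named genes. The growth factor receptor Pdgfra of oligodendrocyte precursors had 35.5 in Exp1 and 41.8 in Exp2, and the transcription factor Sox10 had 30.7 in Exp1 and 46 in Exp2. Myelin genes were low as well, with 48.8 in Exp1 and 35.7 in Exp2 for Mbp and 10.9 in Exp1 and 2.2 in Exp2 for Mog. Nkx2-2, a transcription factor of precursors, gave the highest value of the list, 113 in Exp2 against 48.5 in Exp1, still below the highest control.

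Young neuron genes spanned a wide range of signals. Of 25, 10 (40%) were above 50 on both arrays, against 58.0% of all named genes, and 3 (12%) were under 20, against 14.7%. The median was 38.7. Tubb3, the neuronal beta-tubulin, had 1836 in Exp1 and 1959 in Exp2, but it was read by a family-kind probe set that may pick up other tubulins, and its second probe set gave 17.5 and 76.8. Rtn1, a reticulon of the endoplasmic reticulum, had 739 in Exp1 and 1284 in Exp2, the adhesion molecule Ncam1 439 in Exp1 and 819.6 in Exp2, and the ubiquitin hydrolase Uchl1 358 in Exp1 and 506 in Exp2. The microtubule proteins Mapt (313 in Exp1 and 333 in Exp2) and Map2 (147 in Exp1 and 102 in Exp2) and the destabiliser Stmn2 (57.5 in Exp1 and 78.4 in Exp2) were weaker. Dcx, the doublecortin of migrating neurons, had 41.2 in Exp1 and 47.3 in Exp2 and the growth cone protein Gap43 44.5 in Exp1 and 33.6 in Exp2, both between the classes. The neuronal transcription factor Neurod6 (2.6 in Exp1 and 5.2 in Exp2), the RNA-binding protein Elavl3 (6.8 in Exp1 and 3.8 in Exp2) and the calcium buffer Calb1 (9.5 in Exp1 and 4.9 in Exp2) were under 20.

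Synapse and transmitter genes were mostly low, with 6 of 23 (26.1%) above 50 on both arrays, against 58.0% of all named genes. Another 6 (26.1%) were under 20, against 14.7%, and the median was 27.3. Snap25 (4.3 in Exp1 and 19.6 in Exp2) and Syp (16.8 in Exp1 and 6.7 in Exp2), proteins of synaptic vesicle release, and the kinase subunit Camk2a (10.4 in Exp1 and 5 in Exp2) were among those under 20. Vamp2, a vesicle fusion protein also used outside synapses, had 447 in Exp1 and 298 in Exp2. Gad1, which makes the transmitter GABA, had 157 in Exp1 and 95.4 in Exp2. Gria2, an AMPA receptor subunit, gave 1509.5 in Exp1 and 186 in Exp2, so its signal differed widely between the cultures. Pvalb (301 in Exp1 and 180.1 in Exp2) had a second probe set at 5.2 and 17.1. Syn2 (102 in Exp1 and 73.3 in Exp2) and Chga (77.7 in Exp1 and 72.9 in Exp2, with a second probe set at 5.6 and 6.1) made up the 6.

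**Figure D2:**
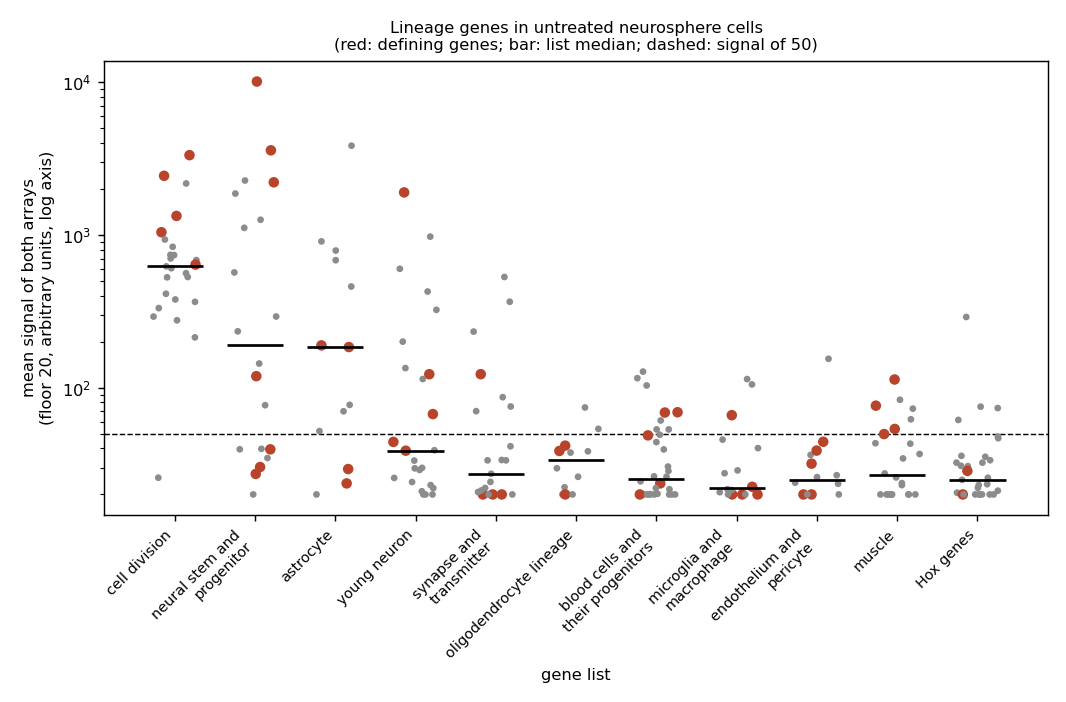
Mean signal of both untreated arrays for each gene of 11 lists (log axis, values under 20 drawn at 20), with defining genes in red, a bar at each list's median and a dashed line at 50. Medians are 622 for cell division and 189 for the neural stem list, against 27.3 for synapse genes and 22 for microglia and macrophage genes.

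Transcription factor genes that mark position along the body axis gave few signals above the controls. Of 15 forebrain regional genes, 3 (20%) were above 50 on both arrays, against 58.0% of all named genes. Only 1 of them, Six3, exceeded 114.2 on both. Six3, of the front of the brain, had 165 in Exp1 and 156 in Exp2 with a second probe set at 6.4 and 5.5, Ebf1 126 in Exp1 and 100.4 in Exp2 and Gsx1 83.4 in Exp1 and 77.4 in Exp2. Dlx1, which marks the ventral forebrain, was under 20 with 4.2 in Exp1 and 2.2 in Exp2. Its neighbour Dlx2, of the same cells, was under 20 as well with 5.3 in Exp1 and 1.9 in Exp2. Tbr1, of cortical neurons, was under 20 too with 2.4 in Exp1 and 13.3 in Exp2. Emx2 and Nkx2-1, also of the forebrain, were not analysed here.

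Of 11 genes for midbrain, hindbrain and spinal cord, 2 (18.2%) were above 50 on both arrays, against 58.0% of all named genes. None of the 11 exceeded 114.2 on both. The 2 were Egr2 (102 in Exp1 and 166 in Exp2), which is also an immediate early gene, and En2 (151 in Exp1 and 57.4 in Exp2). En1 was under 20 with 5.1 in Exp1 and 7.9 in Exp2, and Gbx2 gave 119.9 in Exp1 and 32.7 in Exp2. Hox genes, which pattern the hindbrain and the trunk, passed 50 on both arrays in 3 of 31 cases (9.68%). Another 10 (32.3%) were under 20, against 14.7% of all named genes. Hoxa4 was the brightest with 493 in Exp1 and 171 in Exp2, but its other 3 probe sets gave 36 or less. Hoxb6 (73.3 in Exp1 and 76.9 in Exp2) and Hoxb8 (66.6 in Exp1 and 81.2 in Exp2) did not reach the highest control.

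Markers of blood and other cells that brain tissue can carry were mostly low. Of 32 blood and blood progenitor genes, 7 (21.9%) were above 50 on both arrays, against 58.0% of all named genes. Another 10 (31.25%) were under 20, against 14.7%, and the median was 25.2. None of the 32 exceeded 114.2 on both. Ptprc (Cd45), the surface phosphatase of white blood cells, gave 5.6 in Exp1 and 3.6 in Exp2, and its other 2 probe sets gave 4.1 or less. Alpha-globin Hba-a1 had 83.9 in Exp1 and 56.8 in Exp2, at the height of reverse-strand controls. Kit, the stem cell factor receptor, had 81.2 in Exp1 and 58.2 in Exp2, and Cd34, of blood stem cells and vessels, had 27.9 in Exp1 and 7 in Exp2. Lmo2 (233 in Exp1 and 57.1 in Exp2), Csf3r (145 in Exp1 and 112 in Exp2), Elane (126 in Exp1 and 84.5 in Exp2), Hba-x (50.5 in Exp1 and 56.2 in Exp2) and Rag1 (51.1 in Exp1 and 55.6 in Exp2) were the others above 50. The other probe sets of Csf3r and of Rag1 were under 20 on both arrays. Gata1, the erythroid transcription factor, gave 56.1 in Exp1 and 42.3 in Exp2.

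Microglia and macrophage genes passed 50 on both arrays in 2 of 16 cases (12.5%), against 58.0% of all named genes. These were the receptors Cx3cr1 (145 in Exp1 and 75.8 in Exp2) and Cd14 (135 in Exp1 and 95.9 in Exp2). The defining markers Aif1 (5.2 in Exp1 and 3.3 in Exp2), Itgam (7.1 in Exp1 and 3.8 in Exp2) and Adgre1 (14.4 in Exp1 and 11.3 in Exp2) were under 20. Csf1r, the receptor microglia need to survive, gave 123 in Exp1 and 35.4 in Exp2. In the endothelium and pericyte list 1 of 14 (7.14%) passed, the co-receptor Eng (120 in Exp1 and 199 in Exp2). Pecam1 (12.2 in Exp1 and 50.6 in Exp2), Cdh5 (1.3 in Exp1 and 19.3 in Exp2), Kdr (39.3 in Exp1 and 49.8 in Exp2), Tek (40 in Exp1 and 37.5 in Exp2) and Pdgfrb (5.9 in Exp1 and 14.4 in Exp2) did not.

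Fibroblast and meningeal genes passed in 5 of 14 cases (35.7%), against 58.0% of all named genes. Fn1, fibronectin, had 259 in Exp1 and 285 in Exp2. The collagen genes Col1a2 (392 in Exp1 and 355 in Exp2) and Col1a1 (111 in Exp1 and 51.2 in Exp2) each had a second probe set under 20 on both arrays, and the proteoglycan Dcn was under 20 with 16.4 in Exp1 and 13.5 in Exp2. Col6a1 (100 in Exp1 and 146 in Exp2, with a second probe set at 1.6 and 1.4) and Twist1 (69.3 in Exp1 and 53.8 in Exp2) also passed. Of 5 ependyma and choroid plexus genes only Foxj1, which drives motile cilia, passed, with 157 in Exp1 and 186 in Exp2, while transthyretin Ttr had 30.7 in Exp1 and 17.2 in Exp2. Of 9 neural crest and Schwann cell genes, Pmp22 (1514 in Exp1 and 589.5 in Exp2) and Pax3 (72 in Exp1 and 67.8 in Exp2) passed. A second Pmp22 probe set gave 7 and 2.8.

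Lists of lineages outside the nervous system were also pooled. The blood, microglia, endothelium, muscle, cartilage, epithelium, liver, pluripotency and germ line lists held 151 different genes. Of these, 23 (15.2%) were above 50 on both arrays, against 58.0% of all named genes, and 52 (34.4%) were under 20, against 14.7%. The highest control was exceeded on both arrays by 3: Eng, the keratin gene Krt10 (182 in Exp1 and 204 in Exp2, with a second probe set at 2.7 and 1.7) and the sperm protein gene Tnp1 (325 in Exp1 and 244 in Exp2, with a second at 4.1 and 1.7). The fibroblast and meningeal list was not in the pool, and 2 of its genes, Fn1 and Col1a2, exceeded the highest control too. Of 24 muscle genes, 4 (16.7%) were above 50 on both arrays and 9 (37.5%) under 20. The muscle regulators gave 81.4 in Exp1 and 71.4 in Exp2 for Myod1 and 35.3 in Exp1 and 81.6 in Exp2 for Myog. Myf6 had 49.6 in Exp1 and 27.3 in Exp2, and Myf5 had 4 in Exp1 and 4.1 in Exp2. In the pluripotency list the octamer factor Pou5f1 had 24.9 in Exp1 and 22.1 in Exp2 and Zfp42 4.6 in Exp1 and 12.3 in Exp2. Of its 10 genes, 3 (30%) were above 50 on both arrays. These were Fgf4 (126 in Exp1 and 92.8 in Exp2), Lefty1 (101 in Exp1 and 65.4 in Exp2) and Klf4 (58.2 in Exp1 and 78 in Exp2). Lefty1 and Klf4 each had a second probe set under 20 on both arrays. Liver genes were low, with 17 in Exp1 and 18.3 in Exp2 for albumin (Alb) and 16.2 in Exp1 and 7.5 in Exp2 for Apoa1, and alpha-fetoprotein Afp had 56 in Exp1 and 60 in Exp2. The epithelial adhesion gene Cdh1 had 156 in Exp1 and 107 in Exp2, and Epcam had 6.3 in Exp1 and 2.2 in Exp2.

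**Figure D3:**
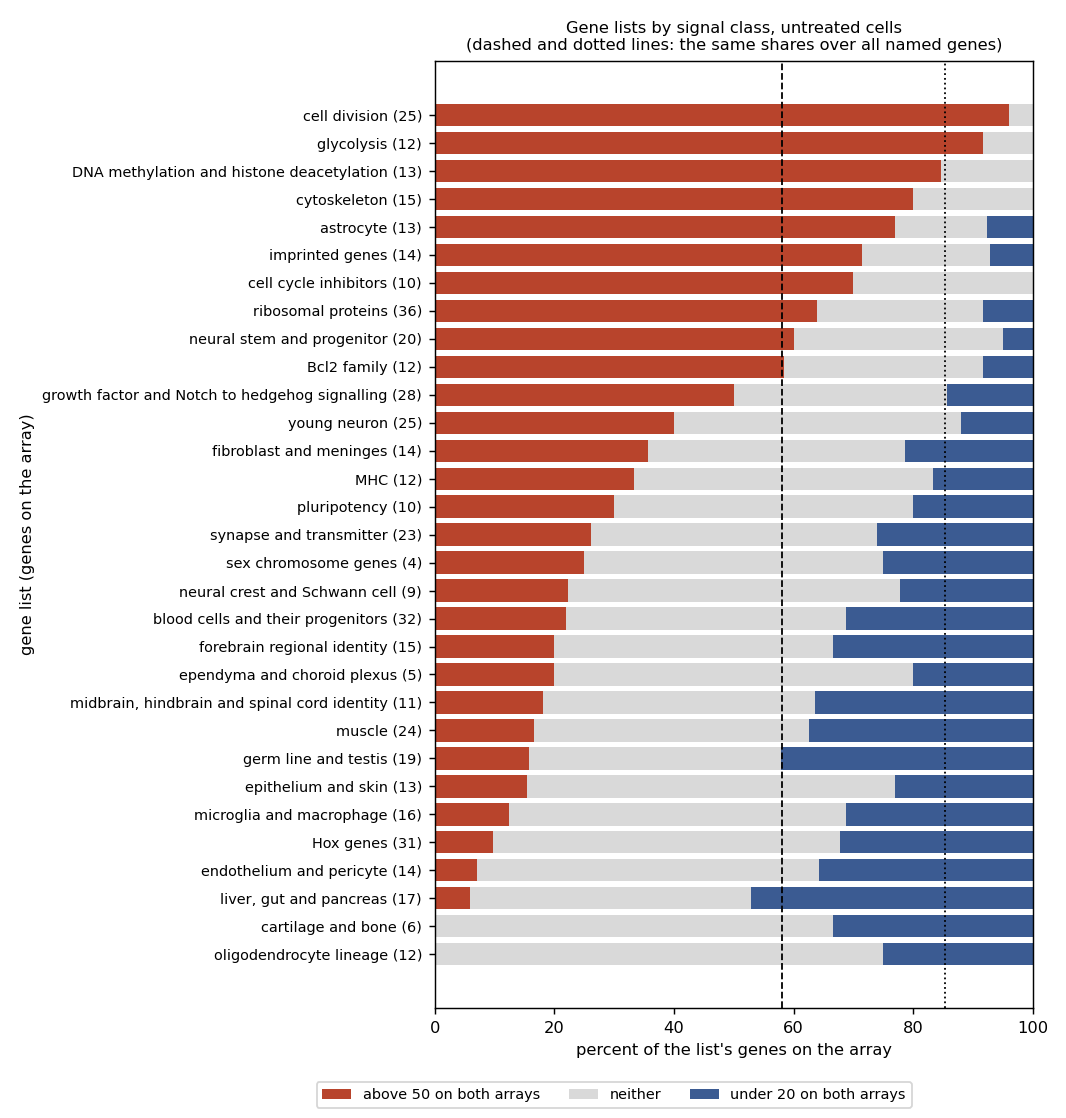
Share of each gene list above 50 on both untreated arrays (red), under 20 on both (blue) and in neither class (grey), with the number of genes measured in brackets. The dashed line marks the 58.0% of all named genes above 50, and the dotted line sets off the 14.7% under 20. Cell division (96%) stands at the top, and the oligodendrocyte lineage (0 of 12) and the cartilage and bone list (0 of 6) at the bottom.

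The promoters of these genes were set beside their signals, since the study concerns DNA methylation, which in mammals falls mostly on cytosines followed by guanine (CG). Many genes used in all tissues start in CG-rich stretches that are normally free of methylation. RefSeq promoter windows (GRCm38.p6, 250 bases before to 50 after the start, first listed start) matched 6572 of 8065 named genes off chromosome 18 (81.5%). The match was 84.4% for genes above 50 and 77% for genes under 20, so the missing genes are not spread evenly. Of 1147 genes with 0 to 5 CG in the window, 22.8% were above 50 on both arrays and 35.7% under 20. With 6 to 10 CG the shares were 37.2% and 22.4% of 715 genes, and with 11 to 20 CG 67.0% and 10.5% of 1729. With 21 to 30 CG they were 74.8% and 5.74% of 1795, and with 31 to 64 CG 76.2% and 5.73% of 1186. The share above 50 was thus higher in each CG class than in the class below it.

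**Figure D4:**
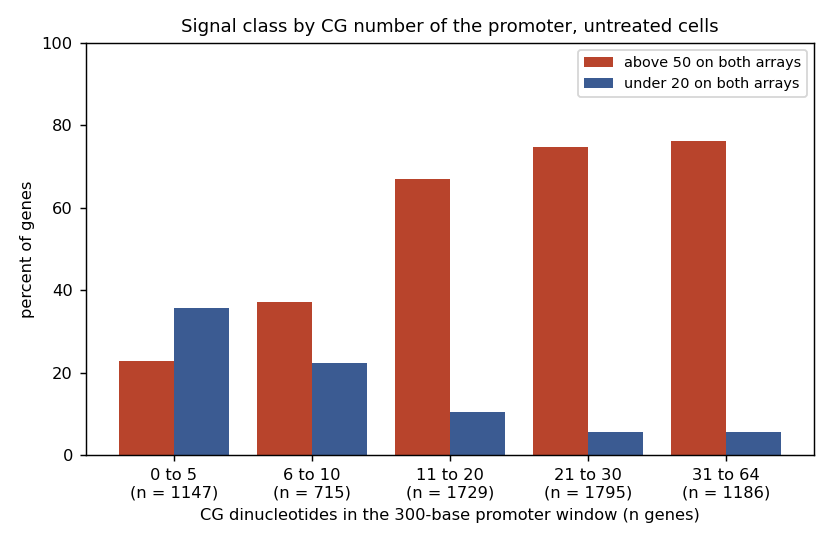
Percent of named genes above 50 (red) and under 20 (blue) on both untreated arrays, by the number of CG in the promoter window. Red bars run from 22.8% at 0 to 5 CG to 76.2% at 31 to 64 CG, and blue bars from 35.7% to 5.73%.

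Single lineage genes did not all follow that order. The 250 bases before the start of 6 genes are shown because, by the CG in these bases, some follow the order and some do not. They are written 5′ to 3′ on the gene's strand from RefSeq GRCm38.p6, with each CG in capitals. The counts given here leave out the 50 bases after the start, which the CG classes included. A gene's class can therefore be higher than its count here. Sox2 (chr3:34649745-34649994, plus strand) and Nes (chr3:87970843-87971092, plus) were above 50 and had 27 and 15 CG. Fabp7 (chr10:57784673-57784922, plus), the brightest of the stem cell list, had only 4. Ptprc (chr1:138175306-138175555, minus) and Aif1 (chr17:35176053-35176302, minus) were under 20 and had 4 and 1. Dlx2 (chr2:71546755-71547004, minus) was under 20 with 24.
Sox2: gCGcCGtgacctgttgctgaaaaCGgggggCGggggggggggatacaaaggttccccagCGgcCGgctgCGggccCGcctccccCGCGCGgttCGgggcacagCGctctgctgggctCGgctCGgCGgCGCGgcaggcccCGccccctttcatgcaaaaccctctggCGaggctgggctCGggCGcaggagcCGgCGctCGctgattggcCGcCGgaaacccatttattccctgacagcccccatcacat
Nes: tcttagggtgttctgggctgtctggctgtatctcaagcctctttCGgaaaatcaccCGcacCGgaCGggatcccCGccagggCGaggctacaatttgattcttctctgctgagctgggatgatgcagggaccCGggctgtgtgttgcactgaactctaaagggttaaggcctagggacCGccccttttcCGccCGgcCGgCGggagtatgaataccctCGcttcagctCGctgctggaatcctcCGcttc
Fabp7: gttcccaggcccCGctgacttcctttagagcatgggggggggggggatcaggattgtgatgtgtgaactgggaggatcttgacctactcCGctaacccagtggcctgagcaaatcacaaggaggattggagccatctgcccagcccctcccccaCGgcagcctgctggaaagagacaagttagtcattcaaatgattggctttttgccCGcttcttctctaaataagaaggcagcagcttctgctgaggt
Ptprc: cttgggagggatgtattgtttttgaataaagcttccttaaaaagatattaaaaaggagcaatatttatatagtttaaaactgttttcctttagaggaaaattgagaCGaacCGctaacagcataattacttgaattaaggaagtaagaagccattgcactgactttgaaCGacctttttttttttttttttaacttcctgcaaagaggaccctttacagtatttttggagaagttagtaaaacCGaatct
Aif1: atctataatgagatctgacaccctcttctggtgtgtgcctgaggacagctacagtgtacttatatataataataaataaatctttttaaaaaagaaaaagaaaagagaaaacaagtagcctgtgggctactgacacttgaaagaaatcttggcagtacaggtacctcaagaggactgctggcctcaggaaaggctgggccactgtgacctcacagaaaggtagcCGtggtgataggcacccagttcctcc
Dlx2: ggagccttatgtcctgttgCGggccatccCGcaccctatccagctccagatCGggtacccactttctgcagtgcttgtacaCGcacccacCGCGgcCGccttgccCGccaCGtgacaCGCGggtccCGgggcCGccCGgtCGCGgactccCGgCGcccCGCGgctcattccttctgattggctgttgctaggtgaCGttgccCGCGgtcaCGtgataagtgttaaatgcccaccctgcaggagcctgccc

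Other short motifs were counted in the same windows on both strands. GGGCGG, which contains a CG, was in 59.3% of the matched windows and 35.7% of all 32851 windows in the table. Genes with it were above 50 in 68.2% of cases and genes without it in 47.7%. TATAAA was in 10.4% of matched windows and 13.6% of all, and genes with it were above 50 in 40.6% of cases, against 62.1% without it. CCAAT was in 38.3% of matched windows and 37.4% of all, with 61.9% and 58.6% above 50. Among the 6 sequences shown, Sox2, Nes and Dlx2 held GGGCGG, Ptprc held TATAAA, and Sox2, Fabp7 and Dlx2 held CCAAT. A match of letters is not a binding site.

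The untreated cultures of the 2 experiments were close for most genes. Over 6169 probe sets above 50 on both arrays the median gap between them was 1.26-fold (0.33 on the log2 scale), and 92.6% lay within 2-fold. The log2 signals of these probe sets correlated with r = 0.933, as a description over probe sets that share the array design and the scaling. Of 5589 genes above 50 on at least 1 array, 300 (5.37%) were over 2-fold higher in Exp2 than in Exp1 and 525 (9.39%) over 2-fold lower. Beyond 4-fold, 28 (0.501%) were higher and 92 (1.65%) lower. With 1 array each these gaps have no replicate check. Centring the arrays on their medians would raise the median log2 difference (Exp2 minus Exp1) of genes above 50 to 0.18, against 0.01 as deposited, and each list below is to be read against that shift.

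Most MHC class I genes named here, whose products present peptides to T cells, were higher in Exp2. All 4 MHC genes above 50 on both arrays lay that way, also after median centring or quantile normalization, with a median log2 difference of 1.89, against 0.01 over all genes above 50. B2m, the light chain of class I, had 4732 in Exp2 against 1083 in Exp1. The heavy chain gene H2-D1 had 1062 in Exp2 against 107 in Exp1, and its other 2 probe sets lay the same way. H2-K1 had 441 in Exp2 against 180.4 in Exp1, with 1 of its other 2 probe sets the other way. The peptide transporter Tap1 had 226 in Exp2 against 71.4 in Exp1, and the immunoproteasome subunit Psmb9 115 in Exp2 against 5.3 in Exp1. The partner transporter gene Tap2 lay the other way with 37.1 in Exp2 against 67.5 in Exp1. H2-K2 (753 in Exp2 against 22.6 in Exp1, 33.3-fold) and H2-Q4 (373 in Exp2 against 36.7 in Exp1, 10.2-fold) were among the 5 largest gaps in that direction, with H2-D1 (9.91-fold). Stx2 (307 in Exp2 against 20.3 in Exp1) and Erdr1 (2591 in Exp2 against 223 in Exp1) were the others. Erdr1 was read by a family-kind probe set, and its second probe set gave 105.8 in Exp2 against 77.7 in Exp1. The heavy chain probe sets that were higher in Exp2 are of the family kind, which can read related genes. The single plain-named one, of H2-K1, gave 26.4 in Exp2 against 40.7 in Exp1. The class II genes H2-Ab1 (10.8 in Exp2 against 68.3 in Exp1) and H2-Eb1 (31.1 in Exp2 against 75.7 in Exp1) lay the other way.

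Cell division genes also stood higher in Exp2, in 20 of the 24 above 50, with a median log2 difference of 0.48. After median centring the count was 21, and after quantile normalization 20. Tk1, the thymidine kinase, had 1009 in Exp2 against 464 in Exp1, and Pcna 3208 in Exp2 against 1849 in Exp1. Ccnd1 (2821 in Exp2 against 3917 in Exp1) and Ccne1 (236 in Exp2 against 361 in Exp1) were among the 4 that lay lower in Exp2. Ribosomal protein genes were higher in Exp2 in 21 of 23 cases, with a median log2 difference of 0.37. The count was 23 after median centring and 20 after quantile normalization, where the median was 0.24. Bright probe sets as a whole leaned the same way. Over the 105 with a mean signal over 5000, ribosomal ones among them, the median was 0.22 as deposited. Over all genes above 50, 2420 were higher and 2362 lower as deposited. After median centring 3143 were higher and 1641 lower, and after quantile normalization 2492 and 2282. Counts under each scaling are to be read against these.

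Neural lists did not lie one way. All 6 synapse genes above 50 on both arrays lay lower in Exp2, with a median log2 difference of -0.65, and 5 of the 6 after median centring or quantile normalization. Of the 10 young neuron genes above 50, 8 were higher in Exp2, with a median log2 difference of 0.41, and the count was 8 under both other scalings. Of all 4784 genes above 50, 3143 were higher in Exp2 after median centring and 2492 after quantile normalization. The 10 astrocyte genes were split, 5 higher and 5 lower, with a median of -0.04, and after median centring 6 were higher and the median was 0.13. Over all genes, the 5 largest gaps towards lower values in Exp2 belonged to Igfbp4, which binds insulin-like growth factors (7.5 in Exp2 against 1742 in Exp1, at least 87.1-fold), the surface protein Thy1 (13.9 in Exp2 against 527 in Exp1, at least 26.4-fold), the neuronal adhesion protein Cntn1 (22.1 in Exp2 against 443 in Exp1, 20.1-fold), Bpifa2 (4.7 in Exp2 against 364 in Exp1, at least 18.2-fold) and the bicarbonate transporter Slc4a4 (20.7 in Exp2 against 366 in Exp1, 17.7-fold). A bound is taken against the floor of 20. The 3 probe sets of Igfbp4 did not lie the same way, since another gave 22.6 in Exp2 against 9.5 in Exp1. Apoe had 237 in Exp2 against 2633 in Exp1, and Gria2 186 in Exp2 against 1509.5 in Exp1. Control ratios and marker sums of other cells also differed between the arrays. The 5′ to 3′ ratio was 0.332 in Exp2 against 0.427 in Exp1 for actin controls and 0.867 in Exp2 against 0.904 in Exp1 for Gapdh controls. The summed signal of the blood list was 1014 in Exp2 against 1356 in Exp1, that of microglia genes 448 in Exp2 against 646 in Exp1, and that of endothelium genes 519.8 in Exp2 against 361 in Exp1. On both arrays, 0 of 32 blood, 0 of 16 microglia and 1 of 14 endothelium genes exceeded the highest control of 114.2. These sums are therefore limited by background. The part of the control ratios and marker sums in these differences was not tested.

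**Figure D5:**
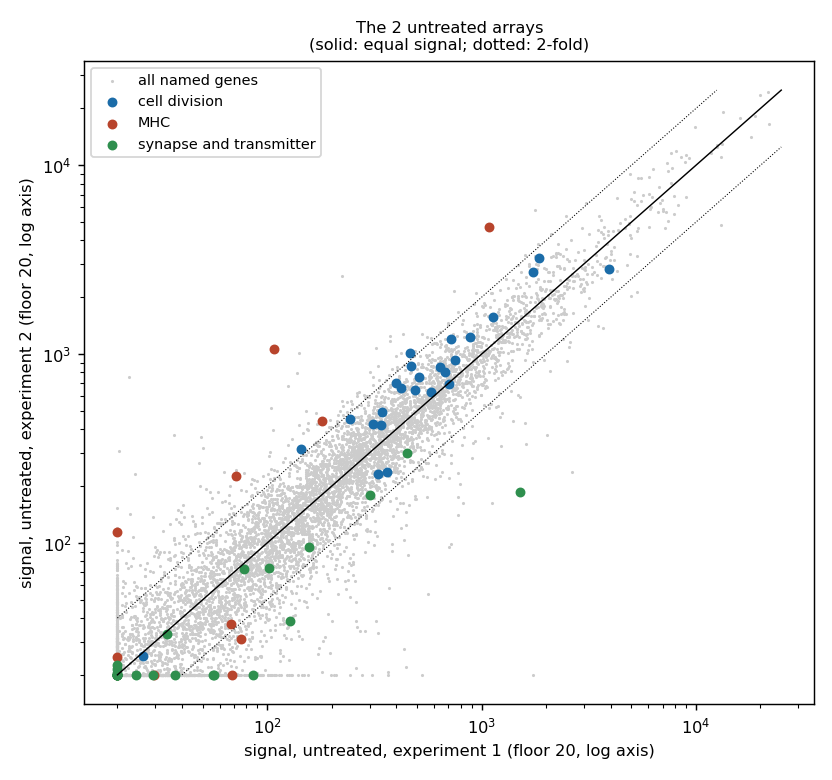
Signal of every named gene in Exp2 against Exp1 (log axes, values under 20 drawn at 20), with cell division genes in blue, MHC genes in red and synapse and transmitter genes in green. The solid line marks equal signal and dotted lines 2-fold; the 4 MHC genes above 50 on both arrays lie above the solid line and the 6 such synapse genes below it, which holds for 5 of them after median centring or quantile normalization.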

How the data were processed

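RNA of untreated neurosphere cells was measured on 2 arrays. The authors deposited 1 intensity for each probe set on each array, not log-transformed. Equal trimmed means (2% cut from each end) across arrays show a scaling before deposit. The software is not given in the sources used here, and the probe set names are of the Affymetrix kind. Of 12488 probe sets, 66 controls were set apart. Of the rest, 10833 had a single gene symbol, 396 several and 1193 none, and those without a single symbol were not named. Gene identifiers of 10817 were found in the reference, which updated their symbols. The 10833 probe sets stood for 8251 genes, 2073 of them with several. For 381 of these 2073, 1 probe set lay above 50 and another under 20 on both arrays. Values under 20 were raised to 20 only for log2 means and differences.

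Named genes were drawn from the 30 of highest mean log2 signal, the 15 highest that are not ribosomal and the neighbours of each threshold. They were also drawn from the 5 largest differences each way and from defining and highest members of 30 lists with 565 genes. Members above 50 of the lists with few such members were a further source. Some defining genes and some genes above 50, such as muscle and germ line ones, are not named. The 3 ribosomal genes under 20, Cst3's gap and single list members were picked out after their values were seen. The members and lists were chosen with earlier results of these data known. Alternatives changed the scaling, thresholds, arrays needed, probe set and floor. Python 3.11.15, numpy 2.4.6, pandas 2.3.3 and matplotlib 3.10.9 were used.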

Additional observations from a re-analysis of the deposited data

How the results depend on the processing

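The number of genes above 50 on both arrays was within 1.5 times of 4784 under all alternatives run, from 3528 at the level of the highest control, chosen after seeing the data, to 5589 when 1 array sufficed. The number under 20 moved further. It was 608 at a threshold of 10, 2252 when 1 array sufficed and 1925 with the lowest probe set of each gene, and it ran from 1591 to 1841 with 1 array left out. Quantile normalization and median centring each moved 1 of 60 list counts by over 1.5 times. Thresholds of 100 and 10 moved 26 of 60, the lowest probe set per gene 33, 1 array sufficing 39, plain-named probe sets alone 13, and leaving out Exp1 or Exp2 22 and 15, so small counts of list members depend on the rule. Of the highest 30 genes, 20 stayed with the lowest probe set per gene and 21 with plain-named probe sets alone. Genes with 0 to 5 CG were above 50 in 12.7% of cases at a threshold of 100, 34.1% when 1 array sufficed, 16.9% with the lowest probe set, 20.1% with plain-named probe sets, 11.3% at the highest control, 19.6% with CG averaged over listed starts, and 26.2% to 31.2% with 1 array left out. For 21 to 30 CG the values were 62.7% at a threshold of 100, 83.5% when 1 array sufficed, 61.7% with the lowest probe set, 59.3% at the highest control, and 78.4% to 80.1% with 1 array left out. The share with 21 to 30 CG was the higher one under each of these. These CG alternatives, and the scalings tried on differences between the arrays, were chosen after seeing the data. No paired analysis was possible because 1 group was described and no test was run. Reverse-strand controls reached 114.2, so signals up to that height are limited by background.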

Other observations

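Receptors for the growth factors of neurosphere culture were measured among 28 signalling genes, of which 14 (50%) were above 50 on both arrays, against 58.0% of all named genes. Ctnnb1, the Wnt effector beta-catenin, had 4921 in Exp1 and 3385 in Exp2. The receptors Fgfr1 (658 in Exp1 and 504 in Exp2), Fgfr2 (399 in Exp1 and 174 in Exp2), Egfr (263 in Exp1 and 224 in Exp2) and Igf1r (563 in Exp1 and 264 in Exp2) were all above 50, as was the hedgehog receptor Ptch1 (324 in Exp1 and 441 in Exp2). The Notch receptors Notch2 (99.9 in Exp1 and 175 in Exp2) and Notch3 (196 in Exp1 and 216 in Exp2) also passed. Of 4 genes under 20 (14.3%, against 14.7% of all named genes), Fgf2, a ligand of the Fgf receptors, had 4.9 in Exp1 and 7.4 in Exp2 and the hedgehog target Gli1 8.9 in Exp1 and 3.4 in Exp2, beside Insr (6.8 in Exp1 and 5.7 in Exp2) and the Notch ligand Jag2 (6.4 in Exp1 and 4.6 in Exp2).

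Glycolytic genes were above 50 on both arrays in 11 of 12 cases (91.7%), against 58.0% of all named genes, with a median signal of 2159. Ldha, which makes lactate, had 5551 in Exp1 and 6464 in Exp2, and the aldolase Aldoa 3901 in Exp1 and 4482 in Exp2. Of 14 imprinted genes, 10 (71.4%) were above 50, and the growth factor gene Igf2 was not among them with 47 in Exp1 and 113 in Exp2. The imprinted genes Nnat (1228 in Exp1 and 325 in Exp2) and Peg3 (429 in Exp1 and 1282 in Exp2) lay in opposite directions between the arrays. Other Peg3 probe sets were nearly even, with 139 in Exp1 and 161 in Exp2, and 227 in Exp1 and 234 in Exp2. Mest had 468 in Exp1 and 808 in Exp2.

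Xist, the RNA that coats the inactive X chromosome in female cells, gave 31.5 in Exp1 and 1.7 in Exp2. Of the Y-linked genes, Eif2s3y had 177 in Exp1 and 193 in Exp2 on a family-kind probe set, Uty 28.6 in Exp1 and 34 in Exp2 and Kdm5d 6.2 in Exp1 and 15 in Exp2. The labels do not give the sex of the embryos.

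The named probe sets of Actb gave 49 in Exp1 and 366 in Exp2 and a second 37.4 in Exp1 and 116 in Exp2, while the control probe set for the 3′ end of the same actin gave 18290 in Exp1 and 10148 in Exp2.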
